A study of Mus musculus with 2 samples.

Results

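The 39 genes described here encode the enzymes of glycolysis, the glucose and lactate carriers on either side of it, and part of the cellular response to low oxygen. They were named by symbol for their role, with no threshold on measured values, and all 39 were present among the 22096 gene symbols of the data. The RNA came from the forelimbs of E13.5 mouse embryos, a stage in mid-gestation, on a mixed strain background. For each sample 6 forelimbs (3 pairs) were pooled and their cells sorted by flow cytometry for the ScxGFP reporter, with 1 library from the ScxGFP-positive and 1 from the ScxGFP-negative cells. Both groups thus carry the same transgene, and an RNA amplification kit made the cDNA of both. The comparison asks how expression in the ScxGFP-positive cells differs from that in the ScxGFP-negative cells. The green fluorescent reporter follows the activity of regulatory DNA from *Scx*, the gene of a tendon and ligament progenitor transcription factor, so the positive cells are those in which that DNA is or recently was active, and the negative cells are the mixture of other cells in the limb. *Scx* itself stood at 134 in the positive library against 1.69 FPKM.

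Glycolysis splits glucose into pyruvate in the cytosol, and most of its steps can be carried out by several isozymes encoded by separate genes. When oxygen is short, prolyl hydroxylases no longer mark the alpha subunits of hypoxia-inducible factor (HIF) for destruction by the von Hippel-Lindau protein, and the stabilised factor raises transcription of glucose carriers, glycolytic enzymes and other targets. Embryonic tissues are known for high rates of glycolysis, and HIF-1 alpha is required in the poorly vascularised cartilage of the growing skeleton.

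Values are FPKM, fragment counts corrected for transcript length and library size, added up over all transcripts that share a symbol. Differences are log2 ratios of positive to negative FPKM after adding 1 to each, a scale that understates differences of weakly expressed genes. With 1 library in each group there was no replicate, no error and no test, so each difference describes these 2 libraries. A gene was taken as measured with an FPKM of 1 or more in at least one library (12096 genes), and was counted as higher or lower when the ratio reached 2-fold. Across all measured genes the median ratio was -0.27 on this scale, so a ratio near that value is the typical one.

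Most genes of glycolytic enzymes and glucose carriers had log2 ratios below that of the typical gene, whereas most oxygen sensors and HIF-responsive effectors lay near it on this scale. A ratio below 0 was common, held by 8932 of all 12096 measured genes. Of the 39 genes, 35 were measured. In ScxGFP-positive cells 5 of the 35 were lower by 2-fold or more (*Slc2a3*, *Slc2a1*, *Ldha*, *Epas1* and *Aldoa*) and 0 were higher, whereas 9.98% of all measured genes were lower and 4.03% higher. The median log2 ratio of the 35 genes was -0.42, which is 0.15 below that of all genes, and 24 of them lay below the median of all genes. TPM rescales FPKM to equal sums, so that each library has the same total, and 1 was added to the TPM. This moved the median of all genes to 0.10 and the split of all 2-fold genes from 28.8% higher to 49.3% higher. TPM are larger numbers than FPKM (*Slc2a1* in positive cells: 13.3 FPKM, 82.2 TPM), so the added 1 weighs less. A move to TPM thus changes both the scaling and the weight of the added 1. With the median ratio of all genes set to 1 and 1 FPKM added, the split was 43.3% higher. In TPM 3 of the 35 genes were lower (*Slc2a3*, *Slc2a1* and *Epas1*) and 1 was higher (*Pgam2*), beside 9.62% and 9.37% of all genes. The median of the 35 genes in TPM was -0.12, or 0.23 below that of all genes. In sorted bulk samples, fewer cells of a type and less RNA per cell cannot be told apart.

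**Figure D1:**
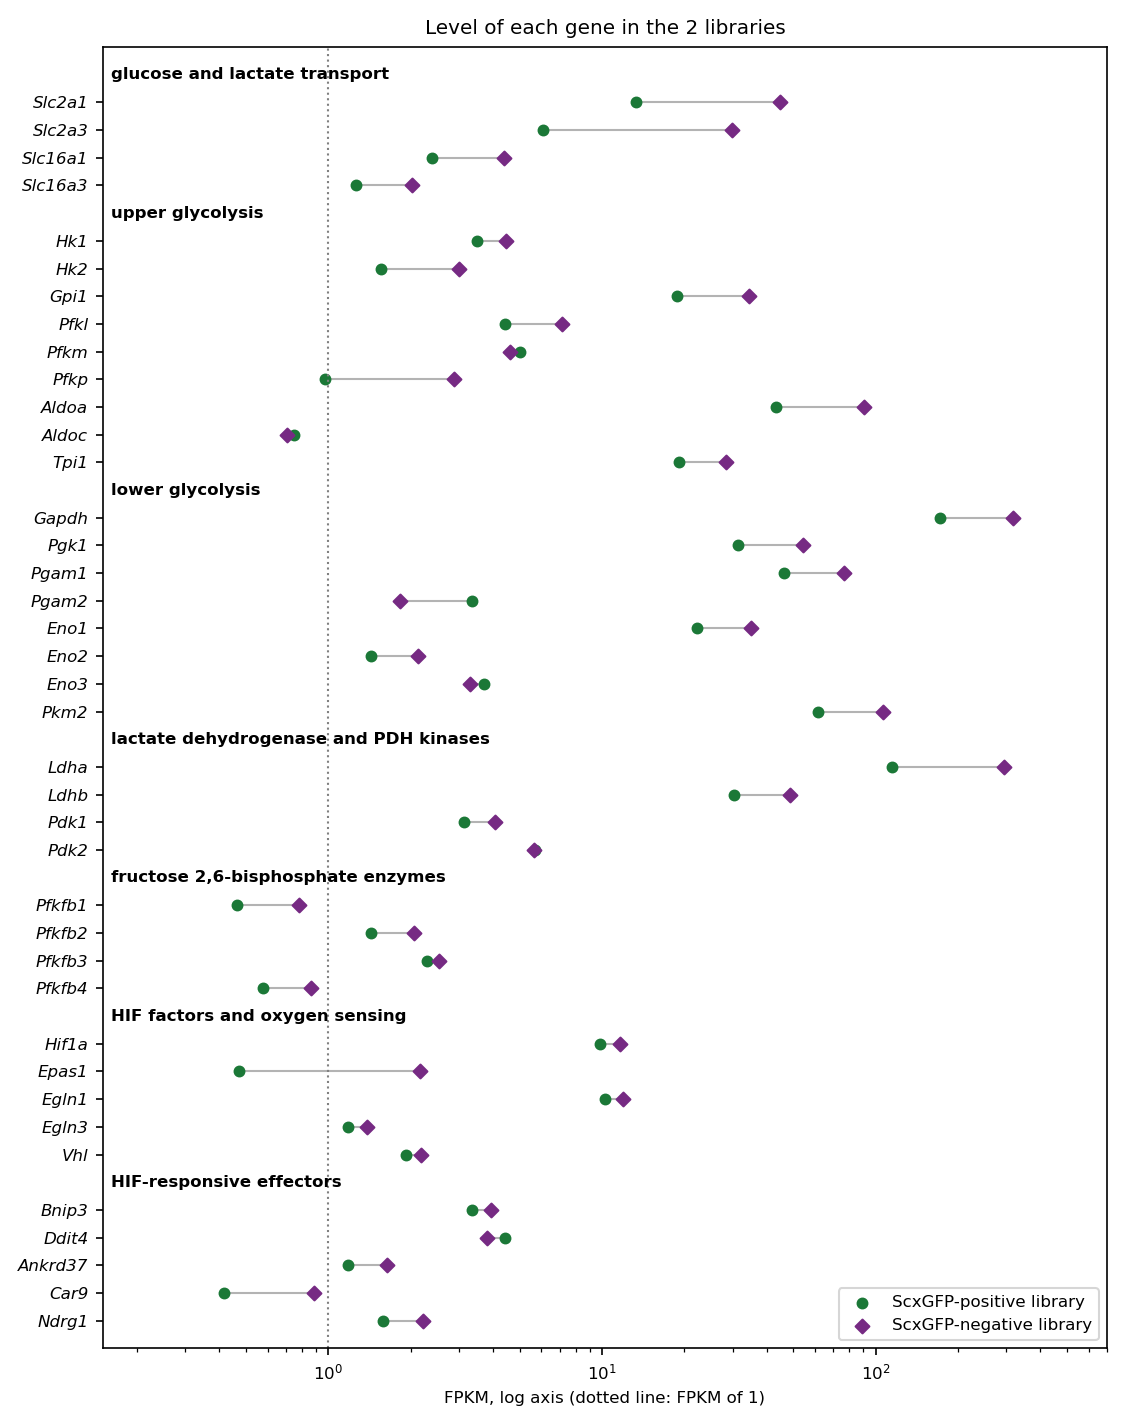
FPKM of each of the 39 genes (log axis) in the ScxGFP-positive library (circles) and the ScxGFP-negative library (diamonds), 1 library each, ordered by role. The abundant enzymes from *Gpi1* to *Ldha* sit to the right, with the negative library higher. *Pfkm*, *Pgam2*, *Eno3*, *Ddit4*, *Aldoc* and, by a small margin, *Pdk2* are placed the other way round.

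Markers of other cell types differed widely between the sorted pools. Haemoglobin and other erythroid markers (*Hbb-y*, *Hbb-bh1*, *Hba-x* and 9 more in the files) summed to 169.7 FPKM in ScxGFP-positive cells against 8239.7 in ScxGFP-negative cells. The macrophage and leukocyte list, led by *Ptprc*, *Tyrobp* and *Laptm5*, summed to 16.7 against 504.8, and 14 of 14 measured genes were lower. Mast cell genes (*Cpa3*, *Cma1*, *Kit*) summed to 5.54 against 418.8, epidermal genes (*Krt5*, *Krt14*, *Krt15*) to 13.8 against 360.7, and endothelial genes (*Pecam1*, *Cdh5*, *Kdr*) to 3.94 against 63.6. Listed at 0 in the positive library were 1 of the erythroid, 2 of the mast cell and 1 of the endothelial markers. Skeletal muscle genes (*Actc1*, *Acta1*, *Tnnt1*) went the other way, at 171.5 against 22.8 FPKM, with 11 of 13 measured genes higher. Tendon genes (*Scx*, *Tnmd*, *Mkx*) summed to 941 against 177, with 9 of 13 higher. Cartilage genes (*Col2a1*, *Col9a1*, *Col9a2*) summed to 138.5 against 99.9, with 3 of 12 higher and 0 lower. Proliferation genes (*Mki67*, *Top2a*, *Ccnb1*) were within 2-fold in 12 of 12 cases, as were 10401 of all 12096 measured genes. All 12 lay below the median of all genes, and their median log2 ratio of -0.46 was 0.20 below it. The part of these cell types in the differences below was not tested.

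The glucose carriers had the lowest log2 ratios among the measured genes of the pathway. *Slc2a3*, encoding the high-affinity carrier GLUT3 (NM_011401, mm9 chromosome 6, 122677827 to 122692763), stood at 6.09 FPKM in the positive library against 29.7. *Slc2a1*, encoding the widespread carrier GLUT1 (NM_011400, mm9 chromosome 4, 118781350 to 118809934), stood at 13.3 against 44.7 FPKM. The positive library thus held 20.5% of the negative level of *Slc2a3* and 29.8% of that of *Slc2a1*, with log2 ratios of -2.12 and -1.68. Of all measured genes 2.57% and 4.01% had lower ratios. Among 21356 symbols ranked by FPKM in each library, *Slc2a3* took rank 3816 in positive against 721 in negative cells, and *Slc2a1* rank 1474 and 423. A rank does not depend on how a library is scaled. Both genes were more than 2-fold lower under each of 10 other processing settings. *Slc2a1* is abundant in red cell precursors, in epidermis and at endothelial barriers, and *Slc2a3* in leukocytes and neurons, and markers of the first 4 of these cell types were lower in the same library.

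The monocarboxylate carriers, which move lactate and pyruvate across the plasma membrane, were closer together. *Slc16a1* (MCT1) had 2.39 FPKM in positive against 4.36 in negative cells (log2 ratio -0.66). *Slc16a3* (MCT4, the lactate exporter of glycolytic cells) had 1.27 against 2.03 (ratio -0.42). Both lay on the lower side of the median of all genes, and neither reached 2-fold. Outside the 39 genes the related carrier *Slc16a7* (MCT2) did, at 1.14 against 3.56 FPKM.

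Along the pathway, the general form of each enzyme had a lower FPKM in the ScxGFP-positive library, and all but *Hk1* also a lower TPM. Hexokinase, which traps glucose in the cell, was encoded mostly by *Hk1*, at 3.49 FPKM in positive and 4.47 in negative cells. The log2 ratio of *Hk1* was -0.28, close to that of the typical gene, and turned to 0.086 in TPM. *Hk2*, the form induced by insulin and hypoxia, stood at 1.55 and 3.00 FPKM, a ratio of -0.65. *Gpi1*, which turns glucose 6-phosphate into fructose 6-phosphate, stood at 18.8 and 34.5 FPKM, a ratio of -0.85.

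*Aldoa*, the main aldolase gene, which cleaves the 6-carbon sugar, stood at 43.2 FPKM in positive and 90.9 in negative cells. Its log2 ratio of -1.06 passed 2-fold narrowly, was -0.63 in TPM, and passed in 3 of 10 other settings. The transcript NM_001177308 carried 62.3% of *Aldoa* FPKM in positive against 55.5% in negative cells, and its own values were 26.9 and 50.5 FPKM. The second transcript, NM_007438, stood at 15.4 and 39.7. *Tpi1*, encoding triose phosphate isomerase, stood at 19.0 and 28.3 FPKM, with the smallest difference among the abundant enzymes (log2 ratio -0.55).

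*Gapdh*, whose product makes the first high-energy intermediate and the NADH of the pathway, was the most abundant of the 39 genes in both libraries. It stood at 172 against 317 FPKM (log2 ratio -0.88), although its rank was nearly the same, 65 and 59. *Gapdh*, often taken as a constant reference gene, was thus 1.84-fold higher in the negative library in FPKM, and lower than the typical gene in the positive library by 0.61 on the log2 scale. *Slc2a3*, *Eno2*, *Tpi1* and *Gapdh* lie within 2.44 megabases of mm9 chromosome 6 (122677827 to 125115601).

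Below *Gapdh*, *Pgk1* (phosphoglycerate kinase) stood at 31.4 FPKM in positive and 54.2 in negative cells. *Pgam1*, the general phosphoglycerate mutase, stood at 46.3 and 76.5, and *Eno1*, the general enolase, at 22.3 and 35.1. The pyruvate kinase gene, named *Pkm2* in the files and listed through NM_011099 alone (mm9 chromosome 9, 59504415 to 59527182), stood at 61.5 and 106 FPKM. With 1 transcript listed, the M1 and M2 splice forms of pyruvate kinase could not be told apart. The log2 ratios of these 4 genes lay between -0.63 for *Eno1* and -0.78 for *Pkm2*, a narrow band.

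*Ldha*, encoding the lactate dehydrogenase subunit that favours lactate formation (main transcript NM_010699, mm9 chromosome 7, 54101174 to 54110997), stood at 114 FPKM against 295. Its log2 ratio was -1.36, and its rank was 118 against 66. It passed 2-fold in 8 of 10 other settings, the exceptions being TPM (-0.92) and TPM without transcripts shorter than 200 bases (-0.80). *Ldhb*, encoding the subunit that favours lactate use, stood at 30.2 and 48.7 FPKM, a ratio of -0.67. *Gpi1*, *Aldoa*, *Tpi1*, *Gapdh*, *Pgk1*, *Pgam1*, *Eno1*, *Pkm2* and *Ldha*, 9 genes grouped after their values had been seen, summed to 529 FPKM in positive against 1038 in negative cells. In TPM the sums were 3267 and 4710, so the gap narrowed with the scaling. Each of the 9 genes stayed below the median of all genes in all 10 other settings. Of these settings 5 rescale whole libraries, which moves a gene and the median nearly together, so those 5 say little here.

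Several of these genes have processed pseudogenes or other near-identical copies, between which short reads can be divided. In the GENCODE M21 transcripts, 11 of the 39 genes had at least one annotated pseudogene with 90% or more identity over 500 bases or more: *Gapdh* had 156, *Ldha* 10, *Eno1* 5, *Aldoa*, *Bnip3* and *Pkm2* 4 each, *Pgam1* 3, *Pgk1* 2, and *Gpi1*, *Ldhb* and *Tpi1* 1 each. The sources used here do not say how reads with several matches were counted, and the FPKM of these genes is uncertain to that extent. For *Eno1* the files show it directly. The copy *Gm5506* is listed with an entry placed on the *Eno1* locus, at 3.38 against 12.2 FPKM and with a status of low data, and with *Gm5506* on its locus added *Eno1* came to 25.7 against 47.2 FPKM, a log2 ratio of -0.85 in place of -0.63. *Slc2a1*, *Slc2a3*, *Epas1* and the muscle-type isozyme genes *Pfkm*, *Pgam2* and *Eno3* had 0 such copies. The cDNA kit does not mark strand, so reads from any transcript sequence shared with an overlapping neighbour could not be divided by strand. The loci, introns included, overlap by 9260 bases for *Hk1* and *2210417K05Rik*, 4731 for *Pfkfb2* and *Yod1*, 817 for *Pfkm* and *Senp1*, 276 for *Pfkp* and *Pitrm1*, and 23 for *Tpi1* and *Spsb2*. Whether these stretches hold exons of both genes, and on which strands, was not examined.

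**Figure D2:**
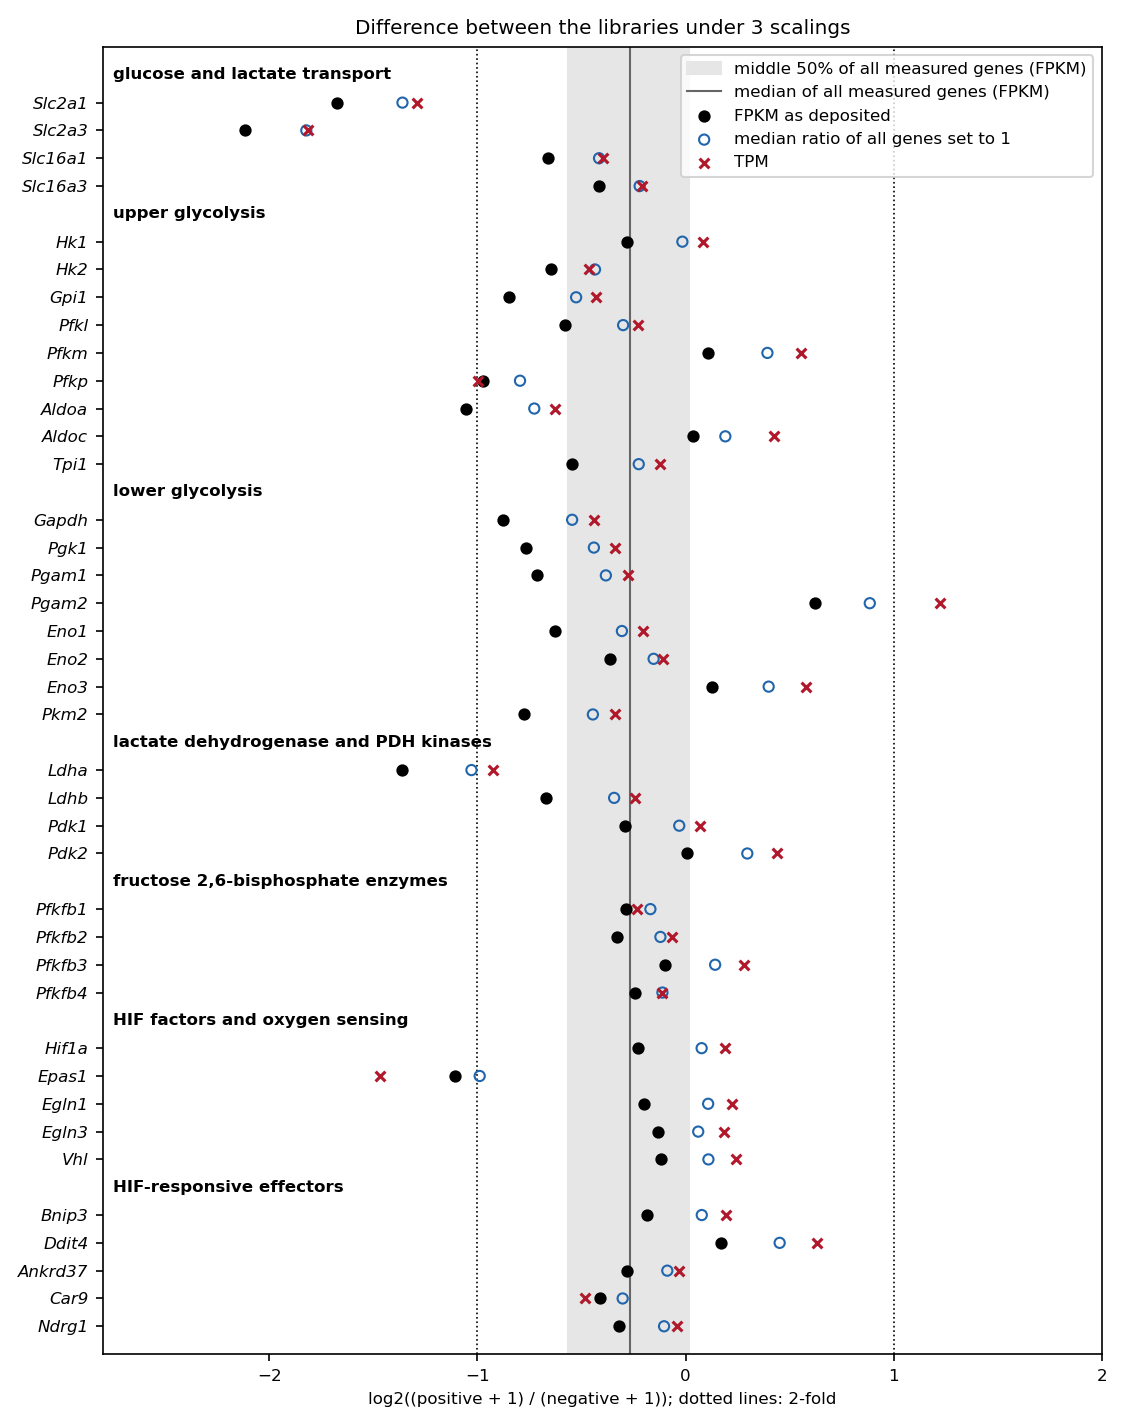
Log2 ratio of positive to negative library for each gene (1 library each), from FPKM as deposited (filled), with the median ratio of all measured genes set to 1 (open) and from TPM (crosses), each after adding 1. The grey band spans the quartiles of all measured genes in FPKM (-0.56 to 0.016); *Slc2a1* and *Slc2a3* lie left of the 2-fold line under all 3 scalings, and *Pgam2* passes the right-hand line in TPM only.

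The isozyme genes *Pgam2*, *Eno3* and *Pfkm*, known from skeletal muscle and grouped after their values had been seen, lay on the other side of 0 from their general counterparts. *Aldoa*, *Hk2* and *Ldha*, whose products are also abundant in muscle, did not (-1.06, -0.65 and -1.36). *Pgam2*, the muscle phosphoglycerate mutase (NM_018870, mm9 chromosome 11, 5701640 to 5703799), stood at 3.34 against 1.82 FPKM. Its log2 ratio of 0.62 was the highest of the 39 genes, short of 2-fold in FPKM and past it in TPM (1.22). With the median ratio of all genes set to 1 and 1 FPKM added, the ratio of *Pgam2* was 0.89, short of 2-fold. *Eno3*, the muscle enolase, stood at 3.70 and 3.30 FPKM, and *Pfkm*, the muscle phosphofructokinase, at 5.03 and 4.60. Their log2 ratios of 0.13 and 0.11 were near 0 but 0.39 and 0.37 above the median of all genes, and both turned negative when only the highest transcript of a gene was used (-0.32 and -0.25).

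That turn came from how FPKM was divided among overlapping transcripts. Of *Eno3*, the transcript NM_001136062 carried 66.0% of FPKM in positive and 0.0083% in negative cells (2.44 against 0.00027 FPKM). The other *Eno3* transcript, NM_007933, stood at 1.26 and 3.30. Of *Pfkm*, the transcript NM_021514, which starts at the most downstream position of the 3, stood at 1.62 FPKM in positive and 0.00038 in negative cells, while NM_001163488 stood at 2.42 and 3.07. The listed *Eno3* transcripts differ in length by few bases (1440 and 1464), so the assignment between them is less certain than the sum.

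Shares within an enzyme family do not depend on the scaling of a library. *Pfkm* made up 48.2% of phosphofructokinase FPKM in positive and 31.5% in negative cells, *Pfkl*, the liver-type gene, 42.5% and 48.8%, and *Pfkp*, the platelet-type gene, 9.32% and 19.7%. *Pfkp* stood at 0.973 against 2.87 FPKM, 33.9% of the negative level, and missed 2-fold only through the added 1 (log2 ratio -0.97). *Pfkl* stood at 4.44 and 7.13 FPKM. *Pgam2* made up 6.73% of phosphoglycerate mutase FPKM against 2.33%, and *Eno3* 13.47% of enolase FPKM against 8.14%. *Ldhb* made up 20.9% of lactate dehydrogenase FPKM in positive and 14.2% in negative cells. *Hk2* and *Ldha* took smaller shares in positive cells, by -9.42 and -6.78 percentage points. With the highest transcript of each gene only, the share of *Pfkm* was 7.37 points higher in positive cells in place of 16.7, and that of *Eno3* 1.18 in place of 5.33. With aligned bases in place of FPKM, the share of *Pgam2* was 2.28 points higher in place of 4.40. Skeletal muscle markers were higher in the same library, and their part in these shares was not tested.

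The isozymes known from nerve tissue were weak in both libraries. *Eno2*, the neuronal enolase, stood at 1.43 FPKM in positive and 2.12 in negative cells, and its share of enolase FPKM was the same, 5.22% and 5.25%. *Aldoc*, the brain aldolase, stood at 0.750 and 0.705 FPKM, below the minimum for a measured gene.

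**Figure D3:**
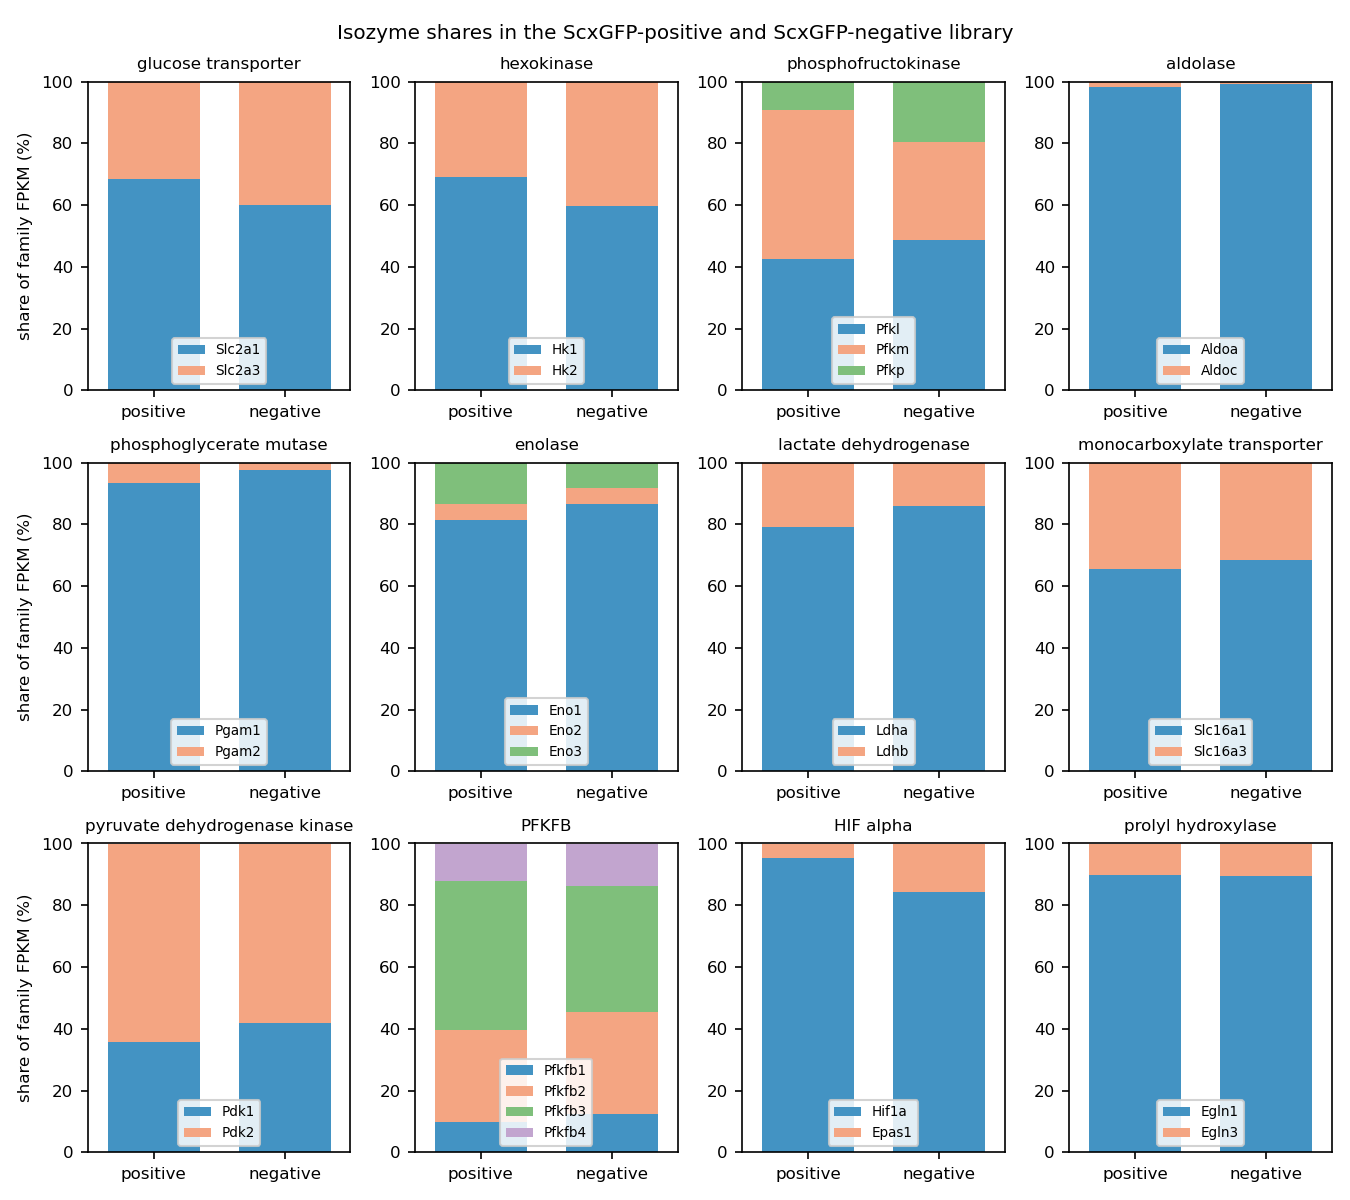
Share of each isozyme or paralog in the summed FPKM of its family, in percent, for the ScxGFP-positive and ScxGFP-negative library (1 each, no error bars). *Pfkm* fills 48.2% of the phosphofructokinase bar for positive and 31.5% for negative cells, and *Epas1* 4.59% and 15.7% of the HIF alpha bar.

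The measured regulators of flux at either end of the pathway had log2 ratios from -0.33 to 0.0065. Pyruvate dehydrogenase kinases inhibit pyruvate dehydrogenase, the mitochondrial enzyme that turns pyruvate into acetyl-CoA. *Pdk1*, the HIF-responsive kinase, stood at 3.14 FPKM in positive and 4.07 in negative cells (log2 ratio -0.29, or 0.068 in TPM), and *Pdk2* at 5.67 and 5.64. The log2 ratio of *Pdk2* was 0.0065, or 0.27 above the median of all genes. The PFKFB enzymes set the level of fructose 2,6-bisphosphate, the activator of phosphofructokinase. *Pfkfb3*, the form with the highest kinase activity, stood at 2.29 and 2.53 FPKM (ratio -0.10, or 0.28 in TPM). *Pfkfb2* stood at 1.43 and 2.05 FPKM (ratio -0.33, or -0.49 with a pseudocount of 0.1). The added 1 pulls the ratios of such weak genes toward 0. *Pfkfb4* (0.575 and 0.864 FPKM) and *Pfkfb1* (0.464 and 0.782) were not measured by the threshold. The positive value of *Pfkfb1* rests on 1822 aligned bases, against 484140 for *Gapdh*.

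Among the HIF factors and their oxygen sensors, 4 of 5 genes lay within 0.15 of the median of all genes. *Hif1a*, encoding the general HIF-1 alpha subunit, stood at 9.79 FPKM in ScxGFP-positive and 11.7 in ScxGFP-negative cells. *Egln1*, encoding PHD2, the main prolyl hydroxylase, stood at 10.3 and 11.9. *Egln3*, encoding the hypoxia-induced hydroxylase PHD3, stood at 1.18 and 1.39, and *Vhl* at 1.93 and 2.18. Their log2 ratios ran from -0.12 for *Vhl* to -0.23 for *Hif1a*, and all 4 turned positive in TPM, at 0.24 for *Vhl*, 0.22 for *Egln1* and 0.19 for both *Hif1a* and *Egln3*.

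*Epas1*, encoding HIF-2 alpha (NM_010137, mm9 chromosome 17, 87153204 to 87232750), was the exception. It stood at 0.471 against 2.17 FPKM, which is 21.8% of the negative level (log2 ratio -1.11). The positive value rests on 5761 aligned bases and the negative on 27688. *Epas1* passed 2-fold in 7 of 9 other settings, the exceptions being a pseudocount of 5 and the median ratio of all genes set to 1. It made up 4.59% of the FPKM of *Hif1a* and *Epas1* together in positive against 15.7% in negative cells. HIF-2 alpha is best known from endothelium, and 10 of 11 measured endothelial markers were lower in the same library; their part in the value of *Epas1* was not tested.

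Among the HIF-responsive effectors the highest ratio was that of *Ddit4*. *Ddit4*, encoding the mTOR inhibitor REDD1, stood at 4.40 against 3.79 FPKM, a log2 ratio of 0.17, and was above 0 under each of 9 other settings. *Bnip3*, a mitophagy receptor gene, stood at 3.34 and 3.94 FPKM (ratio -0.19, or 0.20 in TPM). *Ankrd37*, an ankyrin repeat gene with a strong hypoxia response, stood at 1.18 and 1.64, and *Ndrg1*, a stress-induced gene, at 1.58 and 2.22. *Car9*, the carbonic anhydrase gene that is among the most tightly HIF-dependent genes, had 0.417 and 0.882 FPKM, too little to count as measured. Of the 4 measured effectors 0 reached 2-fold in either direction, beside 9.98% of all measured genes lower and 4.03% higher. With 4 genes this count cannot be set apart from those shares. The median log2 ratio of the 4 effectors, -0.23 (0.083 in TPM), was 0.033 above that of all genes. The median was -0.61 for upper glycolysis (8 measured genes) and -0.67 for lower glycolysis (8 genes), 0.35 and 0.40 below that of all genes. The added 1 pulls the ratios of weak genes such as these effectors toward 0, so medians of weak and abundant genes are not on an equal footing. With a pseudocount of 0.1 *Ankrd37* and *Ndrg1* were at -0.45 and -0.46, below the median of all genes of -0.33. *Bnip3* (-0.23) and *Ddit4* (0.21) stayed above it.

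Promoter windows of 24 of 28 enzyme and transporter genes, and of 4 of 4 effectors, held core letters of the HIF binding site. These windows run from 250 bases before to 50 after an annotated start and come from RefSeq on GRCm38.p6, a later build than the mm9 of the expression files, so their positions are not to be set against those above. The letters ACGTG and GCGTG were searched on both strands, and overlapping matches were counted as 1. ACGTG is also part of the E-box CACGTG. Of 36 genes with an entry, 31 had a match in at least one window (86.1%), beside 68.1% of 8408 measured genes with an entry and 46.7% of all 27025 genes in the table. A gene with more windows has more room for a match. By window, 41 of 55 held one (74.5%), beside 61.9% of 10762 windows of measured genes and 43.8% of all 32851. *Slc2a3*, *Epas1* and *Ndrg1* had no entry, and *Gpi1*, *Tpi1*, *Eno2*, *Pgam2* and *Vhl* had 0 matches. The 5 windows below were chosen to set 2 genes that were lower by 2-fold or more (*Ldha*, *Slc2a1*) and the phosphoglycerate kinase gene beside 2 effectors that were not lower to that degree (*Bnip3*, *Ddit4*). *Aldoa*, also lower by 2-fold or more, is not shown, and its windows had 1, 1 and 0 matches. Capitals mark the matches.
Ldha, GRCm38.p6 chr7:46845554-46845853, plus strand: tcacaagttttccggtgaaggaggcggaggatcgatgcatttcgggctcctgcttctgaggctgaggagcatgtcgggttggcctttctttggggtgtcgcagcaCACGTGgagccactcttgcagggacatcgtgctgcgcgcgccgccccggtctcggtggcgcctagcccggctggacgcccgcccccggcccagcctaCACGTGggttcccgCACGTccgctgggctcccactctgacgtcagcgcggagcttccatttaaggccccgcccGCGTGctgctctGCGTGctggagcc
Slc2a1, GRCm38.p6 chr4:119108495-119108794, plus strand: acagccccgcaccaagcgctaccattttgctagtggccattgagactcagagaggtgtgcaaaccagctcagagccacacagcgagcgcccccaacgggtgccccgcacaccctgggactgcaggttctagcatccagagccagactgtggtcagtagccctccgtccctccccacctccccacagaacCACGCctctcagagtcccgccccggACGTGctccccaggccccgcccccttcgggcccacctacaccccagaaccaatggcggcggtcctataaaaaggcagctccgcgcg
Pgk1, GRCm38.p6 chrX:106186850-106187149, plus strand: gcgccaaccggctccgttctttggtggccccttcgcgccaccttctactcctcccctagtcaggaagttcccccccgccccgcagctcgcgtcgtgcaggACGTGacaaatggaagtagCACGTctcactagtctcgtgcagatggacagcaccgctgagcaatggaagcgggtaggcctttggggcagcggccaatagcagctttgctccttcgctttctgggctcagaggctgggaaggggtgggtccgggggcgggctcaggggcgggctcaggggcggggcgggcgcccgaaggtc
Bnip3, GRCm38.p6 chr7:138909457-138909756, minus strand: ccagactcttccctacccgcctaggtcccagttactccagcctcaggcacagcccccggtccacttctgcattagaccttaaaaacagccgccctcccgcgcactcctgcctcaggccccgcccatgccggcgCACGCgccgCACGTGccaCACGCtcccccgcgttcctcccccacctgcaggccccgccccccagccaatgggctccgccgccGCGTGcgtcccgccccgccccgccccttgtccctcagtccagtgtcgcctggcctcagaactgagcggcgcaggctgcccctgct
Ddit4, GRCm38.p6 chr10:59951721-59952020, minus strand: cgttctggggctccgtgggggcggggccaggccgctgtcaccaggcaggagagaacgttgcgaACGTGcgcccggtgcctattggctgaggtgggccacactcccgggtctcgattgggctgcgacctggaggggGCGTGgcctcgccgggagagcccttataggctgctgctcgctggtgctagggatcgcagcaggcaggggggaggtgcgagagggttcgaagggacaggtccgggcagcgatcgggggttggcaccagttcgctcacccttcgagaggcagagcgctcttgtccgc
The *Ldha* window had 5 matches, the most of the 55 windows of these genes, and 1.48% of the windows of measured genes had 5 or more. The *Bnip3* window had 4, and those of *Slc2a1*, *Pgk1* and *Ddit4* had 2 each. The log2 ratio of *Bnip3* was -0.19 and that of *Slc2a1* -1.68, and a relation of matches to ratios over the 55 windows was not tested. A match is a run of letters and was not tested as a binding site.

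Other genes of glucose handling, from a list of 34 symbols, were mostly within 2-fold. By 2-fold or more, 3 of 22 measured genes were lower and 0 were higher, beside 9.98% and 4.03% of all measured genes. Their median ratio of -0.25 was 0.021 above the typical one. *Bpgm*, which makes the 2,3-bisphosphoglycerate that red cells use to release oxygen from haemoglobin, stood at 3.49 FPKM in positive and 31.6 in negative cells. *Hk3*, the hexokinase of leukocytes, stood at 0.0545 and 1.60, the former on 360 aligned bases. *Slc16a7*, given above, completed the 3, and the next lowest ratio was that of *Pgm1* (3.64 and 6.06 FPKM, ratio -0.61). The erythroid, macrophage and leukocyte marker sums given above moved with *Bpgm* and *Hk3* in the same direction.

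Other hypoxia-responsive genes, a list of 42, lay on both sides of the median of all genes, 17 below and 20 above. Of 37 measured genes 1 was higher and 4 were lower in FPKM, beside 4.03% and 9.98% of all measured genes. In TPM 7 were higher and 3 lower, beside 9.37% and 9.62%. The median of the 37 genes in FPKM, -0.14, was 0.13 above the typical ratio. *Lox*, encoding lysyl oxidase, the enzyme that starts collagen crosslinking, stood at 25.7 against 2.30 FPKM, a log2 ratio of 3.02. Lower were *Ero1l*, encoding an oxidase of disulphide formation (3.00 against 14.4), *Bnip3l*, the mitophagy receptor gene that maturing red cells depend on (11.6 against 36.6), *Hmox1*, haem oxygenase (2.50 against 8.78), and *Tfrc*, the transferrin receptor (3.36 against 7.98).

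The collagen hydroxylases in that list were on the positive side with *Lox*. *P4ha1* stood at 5.67 FPKM in positive and 3.56 in negative cells, *P4ha2* at 3.89 and 2.11, *Plod1* at 13.2 and 8.58, and *Plod2* at 14.4 and 8.99. These 4 genes, which hydroxylate proline and lysine in collagen chains, were singled out after their values had been seen. Their log2 ratios ran from 0.55 to 0.65 and did not reach 2-fold in FPKM, whereas in TPM all 4 passed it (1.07 for *P4ha1*, 1.25 for *P4ha2*, 1.05 for *Plod1* and 1.10 for *Plod2*). With the median ratio of all genes set to 1 and 1 FPKM added, all 4 fell short of 2-fold. The ratios were then 0.84, 0.93, 0.88 and 0.94 in the same order. *Vegfa*, the angiogenic factor gene, also singled out afterwards, stood at 4.18 and 3.16 FPKM, a ratio of 0.32.

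**Figure D4:**
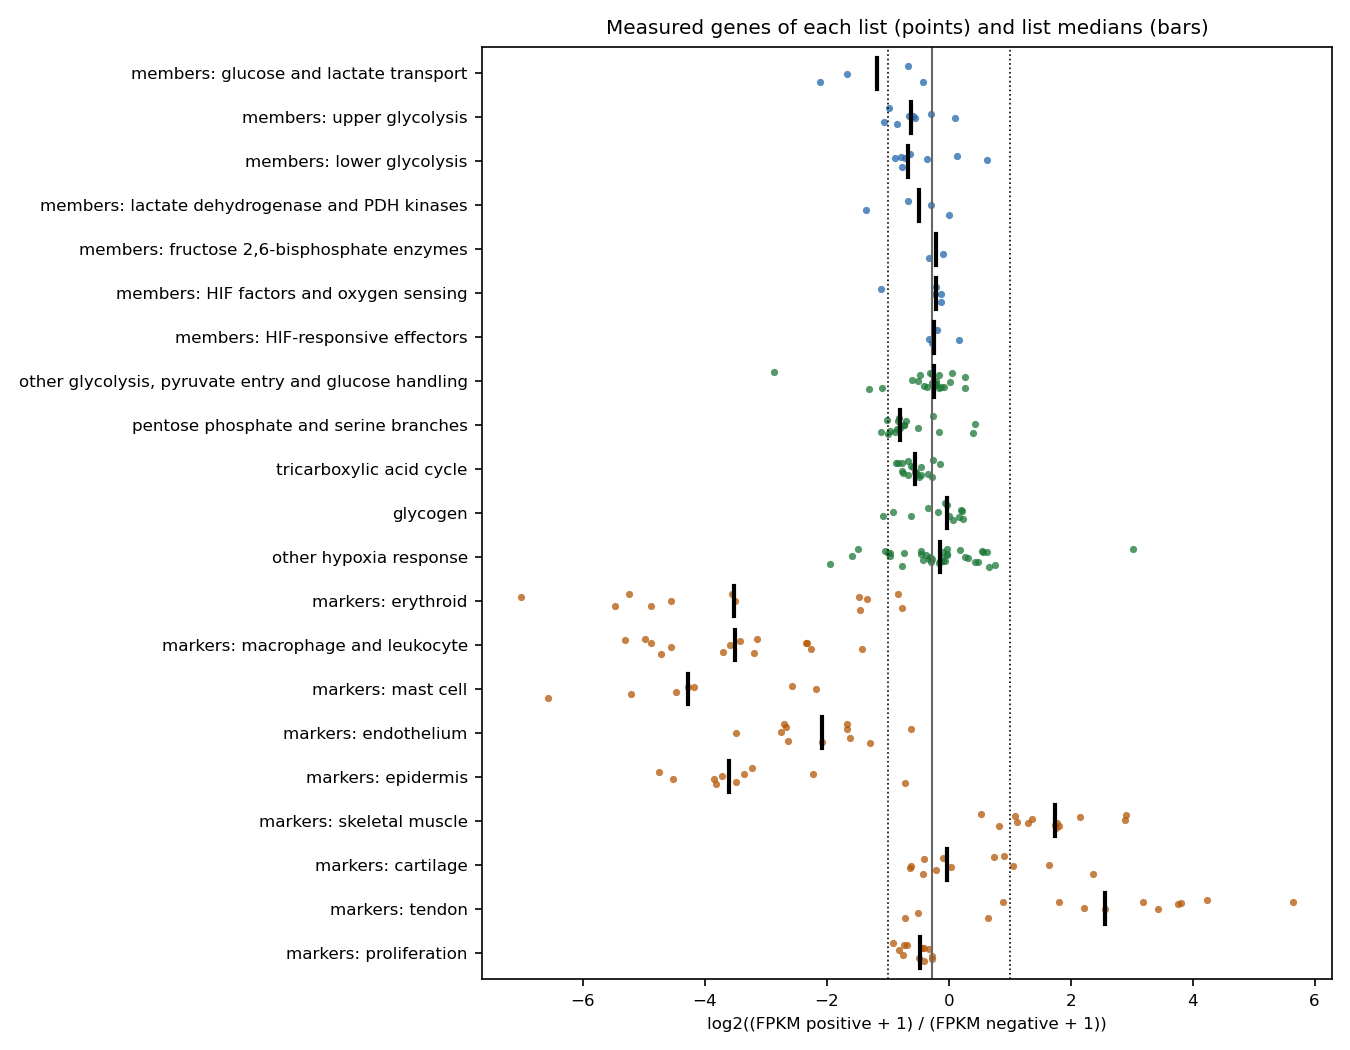
Log2 ratio of positive to negative library for each measured gene of the 7 roles of the 39 genes (blue), the 5 other metabolic and hypoxia lists (green) and the 9 marker lists (orange); points are genes, black bars list medians, the grey line the median of all measured genes (-0.27) and dotted lines 2-fold. The role medians of the enzymes lie at -0.61 and -0.67 and those of the HIF factors and effectors at -0.20 and -0.23 in FPKM (0.19 and 0.083 in TPM).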

How the data were processed

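Total RNA of 1 sorted sample per group was made into cDNA with an Ovation kit of NuGEN, per the labels' protocols. This kit amplifies RNA and does not mark strand. Bowtie 0.12.7, TopHat 1.4.1 and mm9 are named in the submitters' processing notes, and the version of the program that made the FPKM is not given in the sources consulted. Per the file headers, the deposited FPKM is given per RefSeq transcript (28107 rows), with a coverage (signal, the mean depth of aligned bases) and a status. Coverage times length gives aligned bases, 0.687 and 0.875 gigabases in the positive and negative library. FPKM was summed per symbol, and symbols with a failed row were left out (0 of the 39 genes had one). The pseudocount was 1, added after any rescaling, the minimum FPKM 1 in either library, and the threshold 2-fold. No count test was possible without read counts, and none of the differences has a p-value. Positions in the files count from 0, so 1 was added to starts. The 39 genes, 7 roles, 5 other lists and 9 marker lists were chosen with earlier results of these data known. All 39 genes are named, with up to 4 measured genes of each other list by absolute ratio, any others past 2-fold, and the first 3 of each marker list. A further marker list is not reported here. Copies were searched with BLAST 2.17.0. The calculation ran in Python 3.11.15 with pandas 2.3.3 and was checked on made-up values.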

Additional observations from a re-analysis of the deposited data

How the results depend on the processing

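The 5 genes lower by 2-fold became 3 with a pseudocount of 5, with TPM, with TPM without transcripts shorter than 200 bases and with the median ratio of all genes set to 1, and lay between 4 and 6 in the other 6 settings. Of all genes tested, 9.98% were lower at first, 3.26%, 9.62%, 8.85% and 7.74% in those 4 settings in turn, and between 5.46% and 14.7% in the other 6. The count of higher genes, 0, became 1 (*Pgam2*) with TPM, with TPM without haemoglobin genes and with TPM without transcripts shorter than 200 bases. The median of the measured genes minus that of all genes, -0.15, was -0.027 with a pseudocount of 5, -0.32 without a minimum FPKM and -0.39 with a minimum of 5, which leaves 17 of the 39 genes. Under the other 7 settings it lay between -0.24 and -0.12. Of all genes past 2-fold, 28.8% were higher, against 43.3% with the median ratio set to 1, 41.0% with equal upper quartiles, 49.3% with TPM, and 45.5% and 55.0% with TPM without haemoglobin genes and without transcripts shorter than 200 bases. The share of *Pfkl* among phosphofructokinase genes, -6.35 percentage points in positive minus negative cells, became 2.14 when the highest transcript of each gene was used, which omits part of *Pfkm*, whose own difference went from 16.7 to 7.37 points. No paired analysis was possible because each group has 1 library. No replicate could be left out, and read counts behind the FPKM are unknown, so counting error could not be given.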

Other observations

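Other routes of carbon metabolism had low ratios as well. In the list of the pentose phosphate pathway and the serine branch, 2 of 17 measured genes were lower by 2-fold and 0 were higher. Of all measured genes 9.98% were lower and 4.03% higher. Of the 17 genes, 13 lay below the median of all genes. Their median of -0.79 on the log2 scale was lower than those of upper and lower glycolysis. *G6pdx*, the entry enzyme of the pentose phosphate pathway, stood at 7.64 FPKM in positive and 17.7 in negative cells, and *Psat1*, a serine synthesis enzyme, at 17.9 and 37.2. *Shmt2* (11.1 and 23.2 FPKM) and *Shmt1* (1.58 and 4.02), which pass serine carbon to folate, were past 2-fold in plain FPKM and short of it after adding 1. In TPM 0 of the 17 genes were lower by 2-fold, beside 9.62% of all genes, with a median of -0.50. The tricarboxylic acid cycle list had 0 of 19 measured genes past 2-fold. In this list 19 of 19 lay below 0, as did 8932 of all 12096 measured genes. It had 17 of 19 below the median of all genes. Its widest gaps were those of *Sdhd* (12.1 and 22.9), *Got1* (4.34 and 8.47), *Suclg2* (6.15 and 11.1) and *Cs*, citrate synthase (21.8 and 37.6 FPKM). Its median was -0.56, or -0.19 in TPM, where that of all genes was 0.10.

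Glycogen genes were placed differently. By 2-fold or more, 1 of 13 measured genes was lower and 0 were higher, beside 9.98% and 4.03% of all measured genes. The median of -0.021 was 0.25 above the typical ratio, and 9 of 13 lay above the median of all genes. The exception was *Pygl*, the liver-type glycogen phosphorylase that leukocytes also use, at 0.910 FPKM in positive and 3.01 in negative cells. *Gyg*, the glycogen primer (5.65 and 11.6), *Phkg2*, a phosphorylase kinase subunit gene (2.25 and 3.96), and *Gbe1*, the branching enzyme gene (1.34 and 1.95), had the next largest ratios. Which cells of the pools carry these differences was not tested.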
